A study of Mus musculus with 8 samples.

Results

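A set of 35 cell cycle genes was followed through the RNA-seq libraries of infarcted and non-infarcted mouse hearts with and without TIGAR, an enzyme that slows glycolysis. The genes were taken by symbol from the gene table and not by any measured value, though earlier results of these data were known when they were chosen. They comprised 22 genes of mitosis and 13 genes of DNA replication, out of the 16994 genes in the table.

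Each of the 8 libraries was the only one of its group, 1 for each of 2 genotypes in each of 4 regions. The genotypes were WT and TIGAR KO, the whole-body knockout called TKO here. The regions were left ventricle heart tissue (LV) and the infarct zone, border zone and remote zone of infarcted ventricles. Per the methods of the study, male mice had their left anterior descending coronary artery ligated at 16 weeks of age to cause myocardial infarction (MI), and heart function was followed for 4 weeks. The day on which the zones were taken is not given in the sources used here. Infarct RNA was pooled from 3 mice per genotype, so that each infarct library mixed animals. The number of mice behind the other libraries, and whether the LV mice had a sham operation, are not given in the sources used here. With 1 library per group, a ratio between 2 libraries had no replicate check, and its exact 95% interval covers counting error only.

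Dividing cells copy their DNA in S phase and part the copies in mitosis. In S phase the MCM helicase, loaded by CDC6 and activated with CDC45, unwinds the DNA, PCNA clamps the polymerases to it, and ribonucleotide reductase and thymidylate synthase supply the nucleotides. In mitosis cyclin B with CDK1 drives entry, Aurora and Polo kinases and kinesin motors build and pull the spindle, the BUB checkpoint holds CDC20 in check until chromosomes are attached, and the midzone proteins then cut the cell apart. Most adult heart muscle cells no longer divide, and after an infarct the fibroblasts, macrophages and vessel cells that fill the wound do. Transcription of the S phase genes is driven largely by E2F factors, and that of many mitosis genes by factors bound at CCAAT boxes and at the cell cycle genes homology region (CHR).

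The promoters of the genes carried these elements unequally, which is why a few are shown. RefSeq (GRCm38.p6) gave a window from 250 bases before to 50 bases after the transcript start for 30 of the 35 genes. The CHR letters TTTGAA were found in 13 of 18 mitosis windows (72.2%) and in 2 of 12 replication windows (16.7%), against 18.1% of the windows of 27025 genes. CCAAT stood in 88.9% of the mitosis windows, 75% of the replication windows and 37.9% of all. An E2F site, searched as TTTGGCGC, TTTCGCGC, TTTCCCGC or TTTGCCGC, was found in 5 of 12 replication windows (41.7%) and in 1 of 18 mitosis windows (5.56%), against 2.32% of all. Both strands were searched and matches could overlap. These are matches of letters, and binding was not measured.

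The 4 windows that follow show both layouts, 3 of mitosis genes and 1 of a replication gene. Each runs from 180 bases before the start to 20 bases after it, 5′ to 3′ on the minus strand of GRCm38.p6, with every CHR, CCAAT and E2F match in capitals (ATTGG is CCAAT on the other strand).
Ccnb2, chr9:70421535-70421734, with 2 CHR and 3 CCAAT matches: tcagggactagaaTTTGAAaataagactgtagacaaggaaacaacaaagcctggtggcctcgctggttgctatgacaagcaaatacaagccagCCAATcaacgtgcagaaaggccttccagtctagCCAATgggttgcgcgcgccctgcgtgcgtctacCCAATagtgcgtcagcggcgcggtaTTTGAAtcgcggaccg
Cdk1, chr10:69352893-69353092, with 2 CHR, 2 CCAAT and 1 E2F matches: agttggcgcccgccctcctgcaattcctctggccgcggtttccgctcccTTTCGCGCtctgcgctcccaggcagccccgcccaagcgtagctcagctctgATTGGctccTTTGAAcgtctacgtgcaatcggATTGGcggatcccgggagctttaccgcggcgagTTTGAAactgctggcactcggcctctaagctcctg
Cenpf, chr1:189688067-189688266, with 1 CHR and 2 CCAAT matches: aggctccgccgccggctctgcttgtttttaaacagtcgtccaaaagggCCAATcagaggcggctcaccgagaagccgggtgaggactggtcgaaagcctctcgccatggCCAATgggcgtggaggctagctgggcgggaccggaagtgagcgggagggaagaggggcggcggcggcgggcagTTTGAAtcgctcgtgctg
Mcm6, chr1:128359686-128359885, with 3 E2F and 2 CCAAT matches: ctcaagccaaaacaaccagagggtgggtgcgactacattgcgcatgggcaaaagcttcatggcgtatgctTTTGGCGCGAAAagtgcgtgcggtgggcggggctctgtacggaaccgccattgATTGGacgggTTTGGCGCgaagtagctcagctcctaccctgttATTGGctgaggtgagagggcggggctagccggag
Ccnb2 (cyclin B2) and Cdk1 moved with most of the mitosis genes in the results that follow. Cenpf, whose window holds the same kinds of match, moved against them in the infarct and between the genotypes. Mcm6 moved with the replication genes that were higher in the infarct.

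Library totals lay between 27429240 and 33799249 estimated counts. Values are CPM, counts relative to the library total, after TMM scaling, which sets the bulk of genes level between libraries. The TMM factor was 1.54 in the WT infarct, 1.26 in the TKO infarct and 0.866 to 0.956 in the other 6 libraries, and the mitochondrial DNA-encoded genes took 20.7% and 27.9% of the counts in these infarct libraries against 36.6% to 39.3% elsewhere. Tigar checked the labels: it measured 71.7, 25.2, 71.9 and 65.6 CPM in the WT LV, infarct, border and remote libraries and 1.97, 2.43, 2.66 and 2.89 CPM in the TKO ones. Heart muscle markers were high in every library, as shown with the other markers further on. In bulk tissue, fewer cells of a type and less RNA per cell cannot be told apart.

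All 35 genes were protein coding, on 16 chromosomes of GRCm38 (GENCODE M21). For 9 of them (Ccna2, Cdc20, Kif20a, Prc1, Nusap1, Ube2c, Mcm7, Cdc45 and Plk1) exons overlapped a gene on the other strand, and 4 (Ccnb1, Ccnb2, Pcna and Tyms) have named pseudogenes, so that reads of these genes may be shared. A mean of at least 1 CPM was reached by 33 of the 35 genes and by 12999 of all genes. Kif20a and Cdc6 fell under it, and their values are given without a test. CPM is not per length, and levels are therefore compared between libraries, not between genes.

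The WT infarct was the highest library for 27 of the 35 genes, and the TKO LV the lowest for 15. Within each genotype the infarct was the highest region for 26 of 35 genes. In WT all 3 zones of the infarcted heart lay above the LV for 27 genes, and in TKO for 16. Shares of all genes were not counted for these rankings, which therefore only describe the 35 genes.

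**Figure D1:**
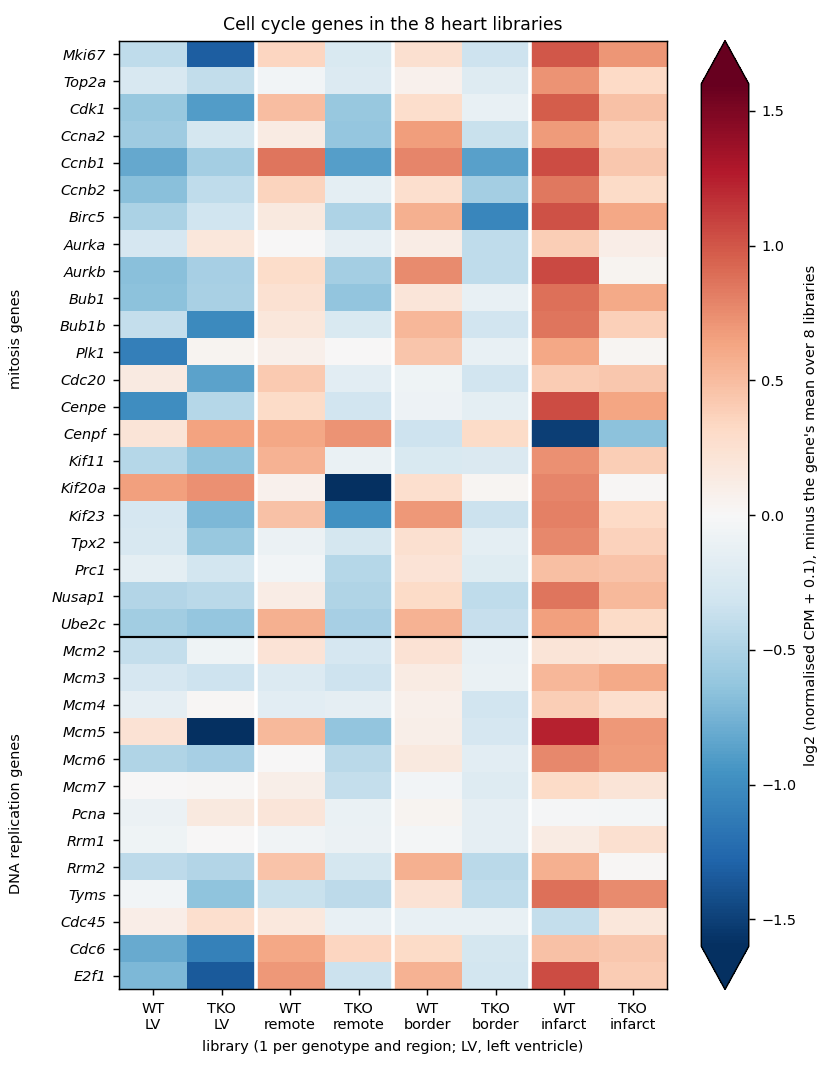
Each row is 1 of the 35 genes and each column 1 library, and the colour gives log2 (normalised CPM + 0.1) minus the gene's mean over the 8 libraries. The WT infarct column is the reddest, with 27 genes at their highest, and the WT remote and border columns are redder than their TKO neighbours. Cenpf runs opposite to its neighbours in the infarct columns.

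The first question was how the genes differed between the zones of the infarcted ventricle and the LV. Over the 33 tested genes the median ratio of the WT infarct to the WT LV was 2.21, and that of the TKO infarct to the TKO LV was 1.96, where the medians of all genes were 1.01 in both. The WT border and remote zones stood at medians of 1.56 and 1.52 times the WT LV, and 18 of 33 genes were at least 1.5-fold higher in each (12.0% and 8.65% of all genes). The TKO border and remote zones stood at 1.10 and 1.002 times the TKO LV, with 5 of 33 genes at least 1.5-fold higher in each (10% and 7.9% of all genes). Intervals of the ratio to the LV lay above 1 for 24 of 35 genes in the WT border (28.5% of all genes) and 22 in the WT remote zone (26.9%), and for 6 in each of these TKO zones (25.8% and 23.9%).

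The summed level of the 21 mitosis genes other than Cenpf showed the same order. It was 42.7 CPM in the WT LV, 66.5 in the remote zone, 70.6 at the border and 99.2 in the infarct. In TKO it was 38.4, 43.6, 45.3 and 76.7 CPM. The WT border and remote sums were 1.65 and 1.56 times that of the WT LV, and the TKO ones 1.18 and 1.14 times that of the TKO LV. The order depended on leaving out Cenpf. With it, the 22 genes summed to 67.8 CPM in the WT LV, 99.9 in the remote zone, 87.9 at the border and 107 in the infarct. In TKO these sums were 72.3, 79.2, 72.2 and 90.5 CPM. The remote zone then lay above the border in both genotypes, and the TKO border was level with the TKO LV. The 13 replication genes summed to 113, 135, 135 and 158 CPM in WT and to 119, 109, 110 and 151 CPM in TKO, in the same order of regions, so that the TKO border and remote zones lay under the TKO LV. Without Pcna the TKO sums were 74.4 CPM in the LV, 71.4 in the remote zone and 74.2 at the border, and the intervals of both zones' ratios to the LV held 1.

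**Figure D2:**
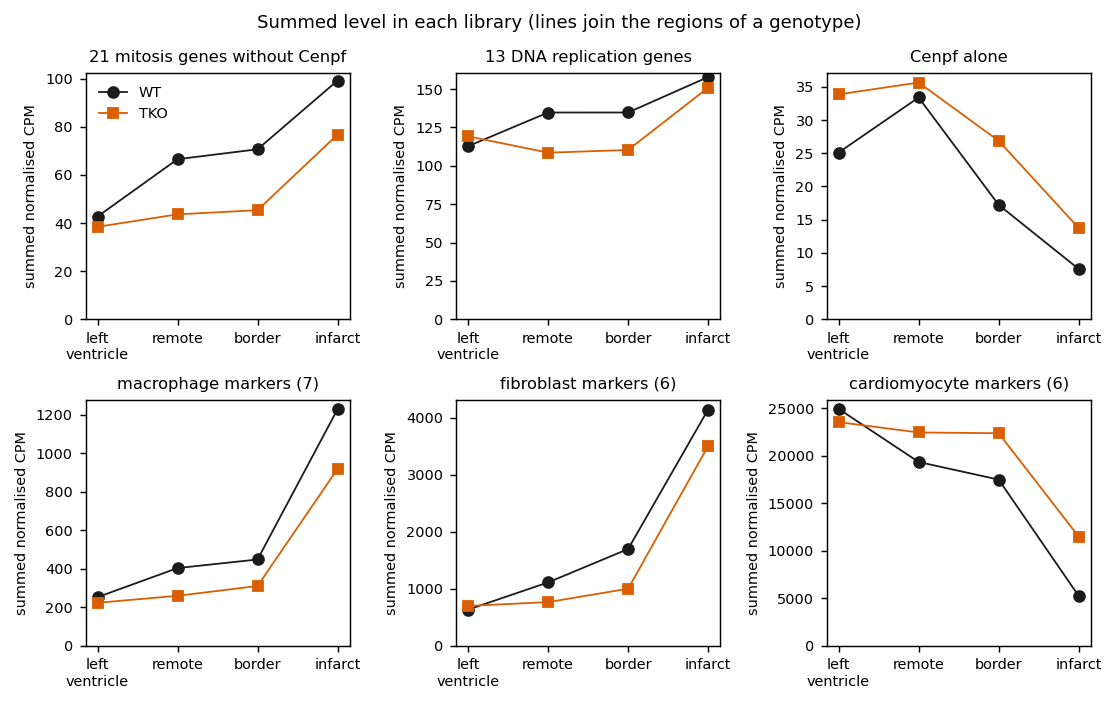
Summed normalised CPM (vertical axes, from 0) in the 4 regions of WT (black circles) and TKO (orange squares), 1 library per point. The mitosis sum without Cenpf rises from 42.7 CPM in the WT LV to 99.2 in the WT infarct, and the TKO sum stays between 38.4 and 45.3 CPM outside the infarct. Cenpf and the heart muscle markers are lowest in the infarct of both genotypes. In the remote zone Cenpf is above the LV of its genotype (33.4 against 25.1 CPM in WT), and the heart muscle markers are below it.

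The region differences were tested with edgeR's quasi-likelihood test over both genotypes, in which the 2 libraries of a region serve as its replicates, so that the p-values bear on these libraries and not on mice. In the infarct zone against the LV, 19 of 33 genes were higher (28.2% of all genes tested were) and 1 was lower (28.6% of all). The 19 were Mki67, Top2a, Cdk1, Ccnb2, Aurkb, Bub1, Bub1b, Cenpe, Kif11, Kif23, Tpx2, Prc1, Nusap1 and Ube2c of mitosis and Mcm3, Mcm5, Mcm6, Tyms and E2f1 of replication. E2f1, the transcription factor of S phase genes, rose by a log2 fold change of 1.85 (SE 0.27, adjusted p = 0.00213). Mki67, the proliferation marker Ki-67 that coats mitotic chromosomes, rose by 1.72 (SE 0.18, adjusted p = 0.000905). Mcm5 rose by 1.72 (SE 0.48, adjusted p = 0.0222), Cenpe by 1.62 (SE 0.38, adjusted p = 0.0115), Cdk1 by 1.54 (SE 0.31, adjusted p = 0.00652) and Mcm6 by 1.24 (SE 0.14, adjusted p = 0.00114). The Mcm5 value leaned on the TKO LV library, with 12 counts. From LV to infarct Mcm5 went from 2.34 to 4.75 CPM in WT and from 0.463 to 3.24 CPM in TKO. Cenpf fell by 1.4985 (SE 0.18, adjusted p = 0.00141). Without the border zone libraries Kif23 (adjusted p = 0.0677), Ube2c (0.0519) and Aurkb (0.0673) no longer passed in edgeR and Birc5 did (0.0281), and without the remote zone libraries Ccnb2 (0.0636) and Aurkb (0.0812) did not pass. Aurkb also missed the threshold in DESeq2 (adjusted p = 0.0521) and with no filter on low counts (0.0629).

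Some genes of the same machines did not pass in edgeR. Ccnb1 (cyclin B1) had a log2 fold change of 1.42 (SE 0.56, adjusted p = 0.069) and Birc5 (survivin, the Aurora B partner) one of 1.26 (SE 0.46, adjusted p = 0.0539) in edgeR, while the DESeq2 Wald test called both (adjusted p = 0.0418 and 0.0326). Pcna stood at −0.06 (SE 0.14, adjusted p = 0.724), Cdc45 at −0.28 (SE 0.28, adjusted p = 0.424), Mcm7 at 0.24 (SE 0.14, adjusted p = 0.194) and Rrm1 at 0.23 (SE 0.10, adjusted p = 0.0954). Under scaling by total counts the median of all genes moved up by 0.83 on the log2 scale in the WT infarct over the LV and by 0.54 in the TKO one. With that shift 31 of 33 genes were called, 30 of them higher. The share of all genes called under this scaling is not given here, so this count cannot be set apart from the shift of all genes.

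Against the remote zone 9 of 33 genes were higher in the infarct (24.6% of all genes) and 1 lower (24.8%). Against the border zone 5 of 33 were higher (21.6%) and 1 lower (21.9%). The share called higher was thus near that of all genes against the remote zone, and under it against the border zone. Mki67, Top2a, Mcm3, Mcm6 and Tyms were higher in both comparisons, and Mcm4, Tpx2, Prc1 and Nusap1 against the remote zone. Tyms, thymidylate synthase, differed by a log2 fold change of 1.22 from the remote zone (SE 0.21, adjusted p = 0.00527) and by 0.91 from the border zone (SE 0.21, adjusted p = 0.0159). Cenpf was the lower gene in both, by −1.75 (SE 0.18, adjusted p = 0.00165) and −1.06 (SE 0.18, adjusted p = 0.00750). Without the border zone libraries Nusap1 did not pass against the remote zone in edgeR (adjusted p = 0.0642). Mcm4 against the remote zone missed the threshold in DESeq2 (adjusted p = 0.0649) and with no filter (0.0521).

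No gene passed in the border zone against the LV (0.669% of all genes were higher and 0.0462% lower), in the remote zone against the LV (0% of all genes either way) or in the border against the remote zone (0% either way). At an unadjusted p under 0.05 edgeR gave 5 of 33 genes higher (11.4% of all genes) and 1 lower (6.54%) in the border zone, 5 higher in the remote zone (6.91%), and 1, Cenpf, lower in the border against the remote zone (0.985%). DESeq2 called 2 genes higher in the border zone (3.66% of all genes), Mki67 and E2f1, 1 in the remote zone (0.977%) and 0 between these zones.

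The second question was how TKO differed from WT in each region. In the LV the genes were split, 16 of 33 lower in TKO (48.6% of all genes were) with a median ratio of 1.01. In the infarct 28 of 33 were lower (49.2% of all) with a median of 0.789. At the border 30 of 33 were lower (50.3% of all) with a median of 0.747, and in the remote zone 31 of 33 (52.0% of all) with a median of 0.685. The median of all genes lay between 0.993 and 1.01 in the 4 regions.

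Genes at least 1.5-fold lower in TKO numbered 6 of 33 in the LV (8.44% of all genes), 4 in the infarct (6.27%), 13 at the border (8.39%) and 16 in the remote zone (6.19%). At least 1.5-fold higher were 2 in the LV (5.58%), 2 in the infarct (10.1%), 1 at the border (3.59%) and 0 in the remote zone (3.16%). Of all 35 genes, 31 were lower in TKO in both the border and the remote zone, which held for 4496 of the 12999 genes tested. Intervals lay under 1 for 5 of the 35 genes in the LV (24.5% of all genes tested), 17 in the infarct (28.8%), 21 at the border (23.9%) and 22 in the remote zone (21.9%). They lay above 1 for 4 genes in the LV (26.1% of all), 2 in the infarct (32.5%), 1 at the border (24.5%) and 0 in the remote zone (20.5%). A ratio's interval takes in no difference between mice. Scaling by total counts moved the median of all genes in the infarct to 0.820. Under it 31 of 33 genes were lower in the TKO infarct, 20 of them at least 1.5-fold, with a median of 0.643. Shares of all genes under this scaling are not given here, so these counts cannot be set apart from the shift of all genes.

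**Figure D3:**
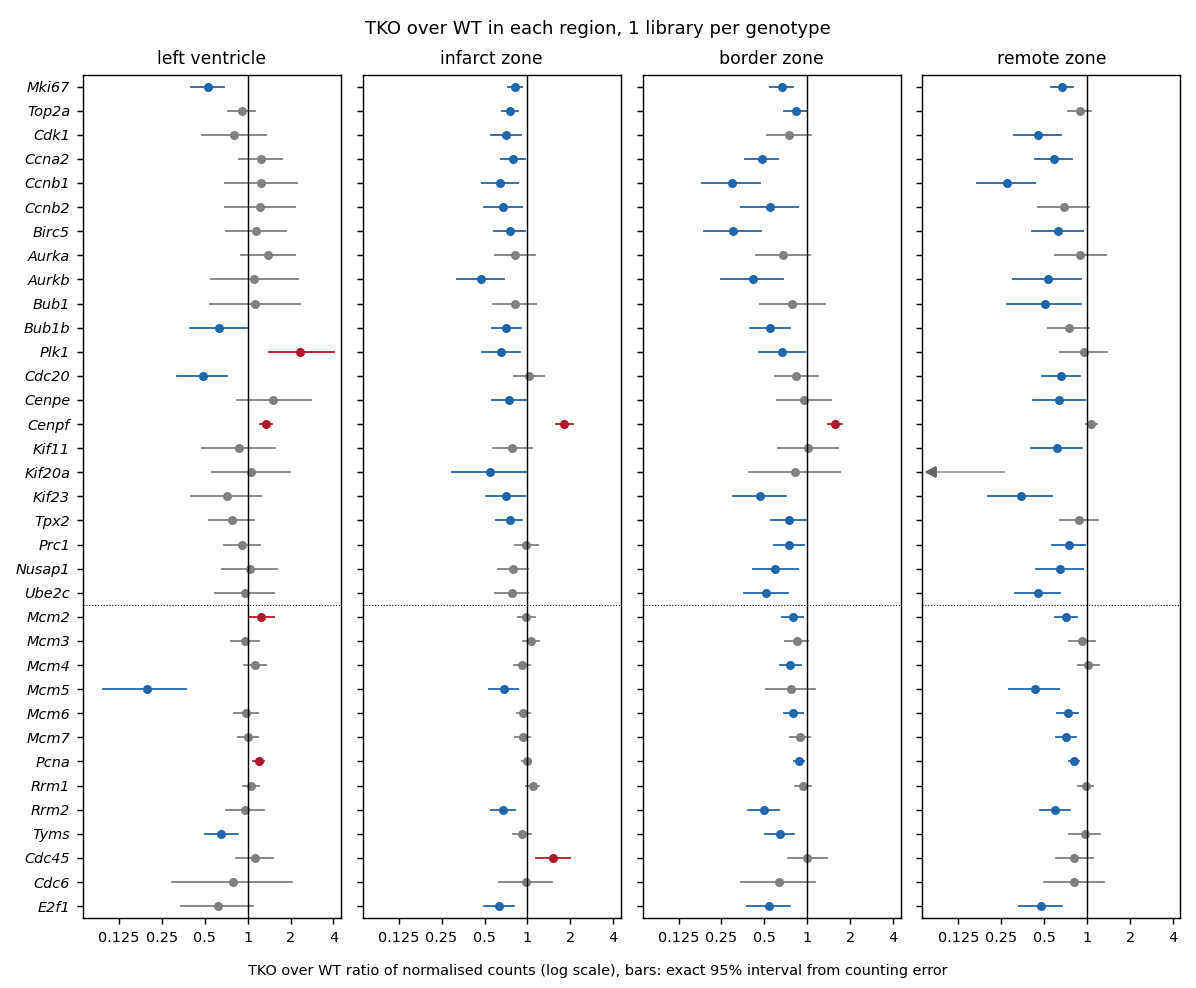
The TKO over WT ratio of each gene (points, log scale) with its exact 95% interval from counting error, in 4 panels for the 4 regions, blue where the interval lies under 1, red where it lies above 1, grey where it holds 1. In the LV 26 of 35 intervals hold 1, and in the remote zone 22 lie under 1, with the arrow marking Kif20a at 0 counts in TKO.

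The cyclins and CDK1 drive entry into mitosis. Ccnb1 measured 0.876 CPM in the WT LV and 1.08 in the TKO LV, 3.43 and 2.21 in the infarct, 2.86 and 0.843 in the border zone, and 3.02 and 0.830 in the remote zone. It was thus 3 times or more its WT LV level in every WT zone, and under the TKO LV in the TKO border and remote zones. Its TKO over WT ratio was 1.23 (0.690 to 2.22) in the LV, 0.645 (0.484 to 0.854) in the infarct, 0.295 (0.181 to 0.465) in the border and 0.275 (0.169 to 0.431) in the remote zone, the lowest of the tested genes in both of the last. The counts behind it were 88 against 25 in the border zone and 92 against 25 in the remote zone. Ccna2, Ccnb2 and Cdk1 had ratios of 0.482, 0.546 and 0.747 in the border zone and of 0.583, 0.685 and 0.452 in the remote zone.

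Aurora B and survivin sit together in the chromosomal passenger complex, which corrects the attachment of chromosomes to the spindle. Aurkb measured 0.657 and 0.734 CPM in the WT and TKO LV, 2.41 and 1.15 in the infarct, 1.95 and 0.809 in the border zone, and 1.38 and 0.731 in the remote zone. Every TKO zone other than the infarct was near the LV level, and every WT zone was above it. Its ratio was 0.476 (0.323 to 0.690) in the infarct, the lowest there, and 0.415 (0.247 to 0.677) in the border zone. Birc5 measured 1.31 and 1.51 CPM in the LV, 3.97 and 2.99 in the infarct, 2.89 and 0.876 in the border zone, and 2.14 and 1.33 in the remote zone, with a border ratio of 0.303 (0.188 to 0.474). Aurka, the Aurora kinase of the spindle poles, measured 1.42 and 1.97 CPM in the LV, 2.29 and 1.87 in the infarct, 1.88 and 1.28 in the border zone, and 1.74 and 1.56 in the remote zone. It was higher in TKO in the LV alone of the 4 regions, and all 4 of its intervals held 1.

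Polo-like kinase 1, which acts from mitotic entry to cell cleavage, was the gene with the highest LV ratio. Plk1 measured 0.839 and 1.97 CPM in the LV, 2.98 and 1.96 in the infarct, 2.63 and 1.75 in the border zone, and 2.04 and 1.93 in the remote zone. The TKO values were nearly level over the regions, and the WT LV stood lowest. The TKO over WT ratio was 2.35 (1.41 to 4.02) in the LV, from 51 against 23 counts, and 0.657 (0.484 to 0.887) in the infarct.

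The checkpoint kinases restrain a ubiquitin ligase, the anaphase-promoting complex. Bub1 measured 0.620 and 0.695 CPM in the LV, 1.99 and 1.62 in the infarct, 1.201 and 0.944 in the border zone, and 1.25 and 0.631 in the remote zone. Cdc20, the activator of the anaphase-promoting complex, measured 2.96 and 1.43 CPM in the LV, 3.55 and 3.64 in the infarct, 2.53 and 2.12 in the border zone, and 3.58 and 2.36 in the remote zone. Its LV ratio of 0.483 (0.318 to 0.722) was the farthest from 1 of its 4 regions. Bub1b, a checkpoint kinase-like protein, had ratios of 0.627, 0.711, 0.550 and 0.741 in the LV, infarct, border and remote zones, and Ube2c, an enzyme of the same ligase, of 0.955, 0.773, 0.514 and 0.451.

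Among the motors, Kif11 pushes the spindle poles apart, Cenpe carries chromosomes to the spindle's middle, and Kif23 and Kif20a work where the cell divides. Kif11 measured 1.02 and 0.888 CPM in the LV, 2.46 and 1.93 in the infarct, 1.201 and 1.21 in the border zone, and 2.17 and 1.33 in the remote zone. Cenpe measured 0.766 and 1.16 CPM in the LV, 3.45 and 2.57 in the infarct, 1.53 and 1.45 in the border zone, and 2.04 and 1.30 in the remote zone. For both motors the border zone ratio was near 1 (1.01 and 0.95), and the remote ratio was 0.613 (0.403 to 0.921) and 0.636 (0.415 to 0.964). Kif23 measured 1.24 and 0.888 CPM in the LV, 2.74 and 1.93 in the infarct, 2.53 and 1.18 in the border zone, and 2.14 and 0.731 in the remote zone. It was lower in TKO in all 4 regions, with a remote ratio of 0.342 (0.201 to 0.562).

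Kif20a was scarce everywhere, with 23 counts in both LV libraries, 39 and 18 in the infarct, 19 and 15 in the border zone, and 16 and 0 in the remote zone for WT and TKO. With the TKO library set to a floor of 3 counts, it was 5.28-fold lower in the TKO remote zone. This value takes the 16 WT counts as exact and is not a lower limit of the interval. Its exons overlap Cdc23, and its normalised CPM lay between 0 and 0.922. Top2a and the other spindle genes, Tpx2, Prc1 and Nusap1, had ratios of 0.597 to 0.827 in the border and of 0.647 to 0.886 in the remote zone.

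Mki67 was lower in TKO in all 4 regions. It measured 6.46 and 3.40 CPM in the LV, 17.2 and 14.1 in the infarct, 10.3 and 6.81 in the border zone, and 10.9 and 7.24 in the remote zone. The WT infarct was highest, the TKO LV lowest, and the TKO border and remote zones were close to the WT LV. All 4 intervals lay under 1, with ratios of 0.526 (0.403 to 0.683), 0.819 (0.729 to 0.919), 0.660 (0.550 to 0.790) and 0.664 (0.557 to 0.790). Of the 35 genes, 14 were lower in TKO in every region, and the share of all genes for which this held was not counted.

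Cenpf, a kinetochore and microtubule-binding protein, was the exception among the mitosis genes. It measured 25.1 and 33.9 CPM in the LV, 7.59 and 13.8 in the infarct, 17.2 and 26.9 in the border zone, and 33.4 and 35.6 in the remote zone. The infarct was its lowest region in both genotypes, and TKO was higher in all 4 regions. Its ratio was 1.35 (1.22 to 1.49) in the LV, 1.81 (1.57 to 2.09) in the infarct, 1.56 (1.40 to 1.74) in the border and 1.07 (0.979 to 1.16) in the remote zone. The summed heart muscle markers, also lowest in the infarct of both genotypes, had ratios of 0.944, 2.19, 1.28 and 1.16 in the same regions. Their part in the level of Cenpf was not tested.

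Cenpf holds a large share of the mitosis counts and hides the others in a sum. The summed 22 mitosis genes had TKO over WT ratios of 1.07 (0.999 to 1.14) in the LV, 0.848 (0.810 to 0.887) in the infarct, 0.822 (0.776 to 0.870) in the border and 0.793 (0.752 to 0.837) in the remote zone. Without Cenpf the ratios were 0.90 (0.826 to 0.980), 0.774 (0.737 to 0.812), 0.642 (0.599 to 0.688) and 0.656 (0.611 to 0.703).

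The MCM proteins form the helicase ring. Mcm6 measured 7.99 and 7.76 CPM in the LV, 19.2 and 18.01 in the infarct, 12.5 and 9.94 in the border zone, and 11.3 and 8.27 in the remote zone. Infarct libraries of both genotypes were the highest and differed little, and its ratio was 0.796 (0.682 to 0.929) in the border and 0.732 (0.619 to 0.864) in the remote zone. Mcm7 measured 11.8 and 11.9 CPM in the LV, 14.6 and 13.5 in the infarct, 11.4 and 10.1 in the border zone, and 12.6 and 8.97 in the remote zone. Mcm4 measured 8.90 and 10.0004 CPM in the LV, 12.9 and 11.8 in the infarct, 10.4 and 7.92 in the border zone, and 8.77 and 8.93 in the remote zone. Its remote ratio of 1.02 (0.856 to 1.21) was the only one above 1 there besides that of Cenpf. Mcm2 and Mcm3 had ratios of 0.788 and 0.841 in the border zone and 0.714 and 0.922 in the remote zone.

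Mcm5 stood apart from the other subunits. It measured 2.34 and 0.463 CPM in the LV, 4.75 and 3.24 in the infarct, 2.11 and 1.62 in the border zone, and 2.86 and 1.23 in the remote zone. The TKO LV value rested on 12 counts against 64 in WT, and the ratio of 0.198 (0.0975 to 0.371) was the lowest of the tested genes in any region. The other 5 subunits had LV ratios between 0.957 and 1.25.

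The helicase loader Cdc6, the helicase activator Cdc45 and the E2F factor were also measured. Cdc6 measured 0.438 and 0.348 CPM in the LV, 1.21 and 1.17 in the infarct, 1.07 and 0.674 in the border zone, and 1.35 and 1.10 in the remote zone, from 9 to 51 counts. Cdc45 measured 3.21 and 3.59 CPM in the LV, 2.25 and 3.38 in the infarct, 2.73 and 2.73 in the border zone, and 3.35 and 2.72 in the remote zone. It was lowest in the WT infarct, unlike most of the genes, and its infarct ratio was 1.51 (1.14 to 1.99). E2f1 measured 1.31 and 0.811 CPM in the LV, 4.68 and 2.97 in the infarct, 3.31 and 1.79 in the border zone, and 3.65 and 1.73 in the remote zone. TKO was lower in all 4 regions, with ratios of 0.617 (0.342 to 1.09), 0.634 (0.496 to 0.806), 0.540 (0.380 to 0.759) and 0.473 (0.334 to 0.664).

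The polymerase clamp and the nucleotide enzymes split. Pcna measured 37.5 and 44.8 CPM in the LV, 39.7 and 39.2 in the infarct, 41.2 and 36.1 in the border zone, and 45.8 and 37.2 in the remote zone. Rrm1, the large subunit of ribonucleotide reductase, measured 17.3 and 18.2 CPM in the LV, 19.9 and 21.6 in the infarct, 17.7 and 16.5 in the border zone, and 17.4 and 17.0 in the remote zone. Over the 8 libraries Rrm1 lay between 16.5 and 21.6 CPM and Pcna between 36.1 and 45.8 CPM. For Pcna the TKO over WT intervals lay under 1 in the border and remote zones, and its LV value was higher in TKO. Rrm2, the small subunit made for S phase, had ratios of 0.966, 0.676, 0.494 and 0.593 in the LV, infarct, border and remote zones, where Rrm1 had 1.05, 1.09, 0.930 and 0.978. For Tyms the ratios were 0.654, 0.918, 0.639 and 0.959.

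The summed 13 replication genes had TKO over WT ratios of 1.06 (1.01 to 1.11) in the LV, 0.956 in the infarct, 0.819 in the border and 0.806 in the remote zone. The LV ratio was 0.989 without Pcna.

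The genotype difference across regions was tested with edgeR over all 8 libraries, with the region as a term and the 4 regions serving as the replicates. The zones were cut from ligated hearts, and whether zones of a genotype came from the same mice is not given in the sources used here. Where they did, the regions are not independent and the p-values are too small. No gene of the 33 was called in either direction (0.0769% of all genes were higher in TKO and 0.0615% lower). The lowest adjusted p was 0.173, for Mki67, with a log2 fold change of −0.58 (SE 0.12). At an unadjusted p under 0.05, 11 of 33 genes were lower in TKO (8.79% of all genes) and 1, Cenpf, was higher (7.43%). DESeq2 called 2 genes, Mki67 and E2f1, both lower (1.65% of all genes were). The log2 fold change was negative for 30 of 33 genes and for 6557 of the 12999 genes tested. Its median was −0.45 over 21 mitosis genes and −0.16 over 12 replication genes, against −0.0024 over all genes.

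**Figure D4:**
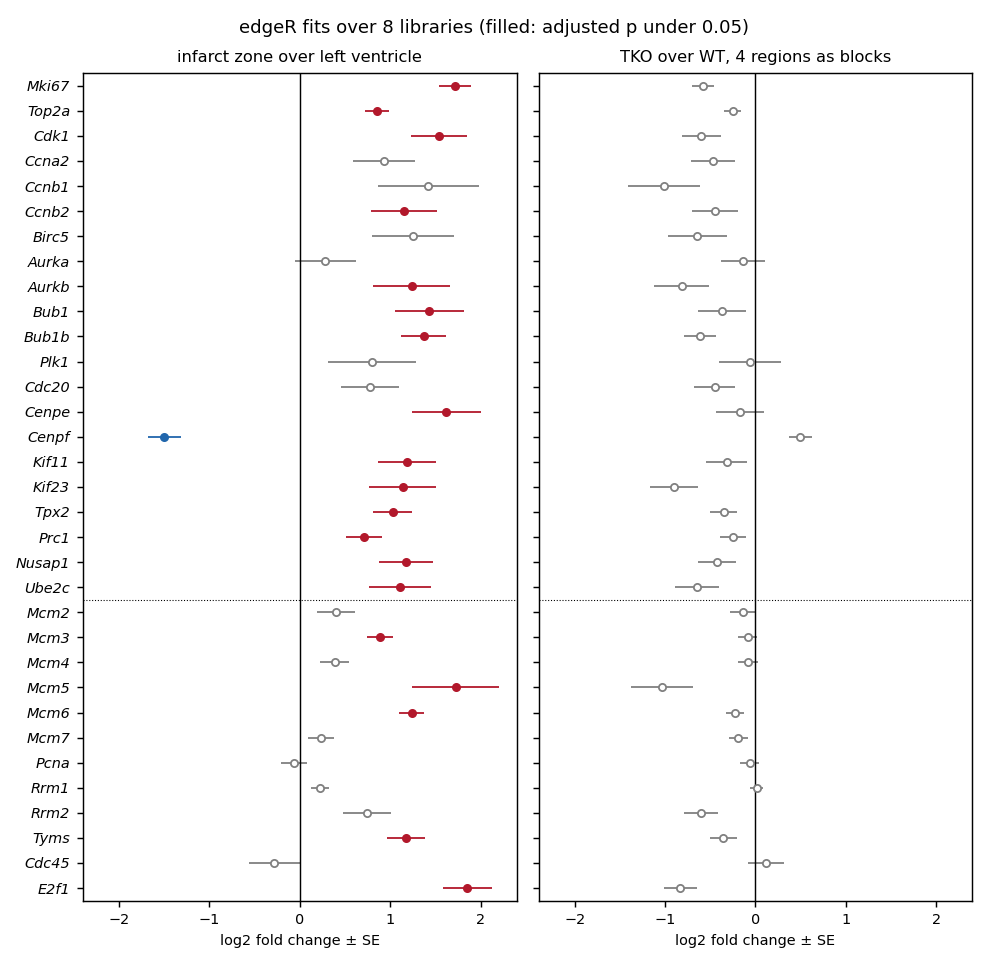
The log2 fold change of the 33 tested genes (points) with its SE (bars) in the infarct zone over the left ventricle and in TKO over WT, filled where the adjusted p of edgeR is under 0.05. In the first panel 19 genes are filled to the right and Cenpf to the left, and in the second none is filled and 30 points lie left of 0.

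Whether the genotype difference of a region departed from that of the other 3 was tested in the same way. No gene passed for the LV (0.223% of all genes departed upward and 0.423% downward), the infarct (0% and 0.00769%), the border zone (0% and 0%) or the remote zone (0% and 0%). At an unadjusted p under 0.05, edgeR gave 2 of 33 genes upward (7.74% of all genes) and 1 downward (9.02%) for the LV and 0 for the other regions, and DESeq2 called 0 for each. The difference between the LV and the infarcted zones in the ratios above is therefore not shown by a test.

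Other genes of the same pathways were counted from lists that do not hold the 35. Of 37 tested mitosis genes, 30 were lower in TKO in the border and 31 in the remote zone, with median ratios of 0.678 and 0.682, against 0.888 in the LV and 0.798 in the infarct. Of 38 tested replication genes the medians were 1.07 in the LV, 0.888 in the infarct, 0.941 in the border and 0.826 in the remote zone. The 9 genes of G1 entry had medians of 0.947, 0.855, 0.949 and 0.880, the 6 transcriptional activators 0.589, 0.876, 0.993 and 0.869, and the 18 cell cycle brakes 0.859, 0.942, 0.990 and 0.983. None of these genes was called by edgeR in the genotype test, and DESeq2 called 1 of the mitosis genes and 1 of the G1 genes lower in TKO.

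In the infarct against the LV, 19 of the 37 other mitosis genes were higher and 3 lower (Pttg1, Sgo2a and Cenpa), and 13 of the 38 other replication genes were higher and 6 lower (Gmnn, Rfc1, Dut, Rpa1, Rpa2 and Rfc4). Higher were also 1 of 9 G1 genes (Cdk6), 2 of 6 activators (Foxm1 and E2f2) and 7 of 18 brakes (Cdkn1a, Cdkn2b, Cdkn2c, Rbl1, E2f7, Btg1 and Btg2), and 1 brake was lower (Lin52, a subunit of the DREAM complex). Of all genes tested, 28.2% were higher and 28.6% lower in this comparison.

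Markers of cell types were summed in the same libraries. The 7 macrophage markers summed to 252 and 223 CPM in the WT and TKO LV, 1229 and 919 in the infarct, 448 and 310 in the border zone, and 403 and 259 in the remote zone, ratios of 0.883, 0.748, 0.692 and 0.643. All 7 were lower in TKO in each of the 3 zones (49.2%, 50.3% and 52.0% of all genes in the infarct, border and remote zones). In the infarct against the LV edgeR called all 7 higher (28.2% of all genes). The 6 fibroblast markers summed to 633 and 698 CPM in the LV, 4145 and 3503 in the infarct, 1696 and 1000 in the border zone, and 1110 and 765 in the remote zone, with all 6 lower in TKO in each zone. The WT zones were thus above the TKO zones for both cell types, in the same direction as the mitosis sum without Cenpf. In the LV that sum had a ratio of 0.90, and the fibroblast markers were higher in TKO. In the genotype test edgeR called 0 of the 7 macrophage and 0 of the 6 fibroblast markers. DESeq2 called 3 of the macrophage and 2 of the fibroblast markers lower in TKO (1.65% of all genes were).

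The 6 B and plasma cell markers summed to 34.2 and 3.55 CPM in the LV, 200 and 147 in the infarct, 41.7 and 25.7 in the border zone, and 18.8 and 7.94 in the remote zone, with 1 marker at 0 counts in the TKO LV and infarct, the WT border zone and both remote zones. The 6 T and NK cell markers summed to 2.43 to 16.7 CPM and the 4 neutrophil markers in the table to 1.39 to 30.1 CPM, and 1 T and NK cell marker was at 0 in the TKO LV. The 6 heart muscle markers summed to 24918 and 23524 CPM in the LV, 5239 and 11480 in the infarct, 17477 and 22357 in the border zone, and 19330 and 22436 in the remote zone. The sums of 4 endothelial markers (388 to 568 CPM) and 5 mural cell markers (627 to 711 CPM) ranged less, but single markers moved apart. In the infarct against the LV, edgeR called 4 of the 5 mural markers higher and 1 lower, with log2 fold changes from −0.52 to 1.55. Of the 4 endothelial markers it called 0 higher and 1 lower (28.2% of all genes were higher and 28.6% lower). The 4 red cell markers summed to 1390 to 3341 CPM and the 3 mesothelial markers to 3.98 to 49.2 CPM, the latter with 1 marker at 0 in 4 libraries. The part of these cell types in the levels of the cell cycle genes was not tested.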

How the data were processed

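Per the labels and the methods of the study, GENEWIZ made the libraries, and the authors trimmed reads with Trim Galore 0.6.5, quantified transcripts with kallisto 0.46 on mm10 and summed them to genes with tximport, and used edgeR 3.34.1. They deposited estimated counts per gene, which are whole numbers in the table. The annotation release, the strand setting and the tximport option are not given in the sources used here. Kallisto shares reads among similar transcripts, which can move counts between overlapping genes and pseudogenes.

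Genes whose mean CPM reached 1 were fitted with edgeR 4.0.16 (quasi-likelihood, TMM, Benjamini-Hochberg adjustment over 12999 genes, threshold 0.05), with region and genotype as terms over 8 libraries, of 27429240 to 33799249 counts. The labels give 1 library per group and no separate animals, so p-values measure the spread between these libraries. Ratios have exact binomial (Clopper-Pearson) 95% intervals. Neither intervals nor floors (3 counts) cover more than counting error. The fits were tried on simulated independent libraries with 1 fixed spread, which does not check them for zones taken from the same mice. DESeq2 1.42.0, other scalings, no filter and left-out regions were tried. The genes, lists and tests were chosen with earlier results of these data known. Values in all libraries were given for the 6 genes of highest and 6 of lowest mean CPM, and for the 3 highest and 3 lowest TKO over WT ratios per region. Promoters came from RefSeq, GRCm38.p6.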

Additional observations from a re-analysis of the deposited data

How the results depend on the processing

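Scaling by total counts, which moved the median of all genes by −0.29 (log2) in TKO over WT in the infarct and by −0.10 in the border zone, gave mitosis sums of 0.691 (infarct) and 0.768 (border) and replication sums of 0.780 and 0.765 times WT. It raised the genes called in the infarct to 31 against the LV, 30 against the remote zone and 28 against the border zone, and called 1 in the border zone against the LV. Shares of all genes called under this scaling are not given here, so these counts cannot be set apart from the shift of all genes. The DESeq2 Wald test called 2 genes in TKO against WT, 2 in the border and 1 in the remote zone against the LV. Without Cenpf the mitosis sums were 0.90 (LV), 0.774 (infarct), 0.642 (border) and 0.656 (remote) times WT. Without Pcna the LV replication sum turned from 1.06 to 0.989. With 1 region left out, 18 or 19 genes were called in the infarct against the LV (20 with all regions), 9 against the remote zone (10 with all), 6 against the border zone and 0 in TKO against WT. DESeq2 size factors and no filter on low counts changed none of the 11 counts of called genes by over 1.5 times, and TMM without mitochondrial DNA-encoded genes moved none of the 8 sums beyond its interval. No paired analysis was possible because the labels carry no replicate numbers and each group is 1 library. At 9 to 183 counts per library for genes such as Cdc6, Ccnb1 and Cdk1, ratios within about 1.5-fold of 1 were often not detectable.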
